A study of Mus musculus with 6 samples.

Results

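The 9 genes described here encode the ligands and receptors of 2 signalling systems through which the somatic cells of the testis address germ cells, the GDNF family with its receptor RET and the KIT ligand with its receptor KIT. They were chosen by name, as Gdnf, Nrtn, Artn, Gfra1, Gfra2, Gfra3, Ret, Kitl and Kit, and all 9 were present among the 20007 gene identifiers of the count files. Of the 9, 7 had enough reads to be tested, and Artn and Gfra3 did not. RNA sequencing had been done on 6 mouse libraries of the KM strain, 2 in each of 3 groups. CiSCs were mouse embryonic fibroblasts that had been passaged, seeded and, after 24 h, treated with compounds whose names are not given, with the aim of turning them into Sertoli cells. MSCs were plated Sertoli cells (the somatic cells that support germ cells inside the tubule), isolated at postnatal day 60. MEFs were embryonic fibroblasts from embryos labelled 13.5 days post coitum (the growth protocol also names day 12.5). No group is described as passaged fibroblasts without the compounds, so that effects of passage and of the compounds cannot be told apart in CiSCs. MSCs and MEFs differ in age and tissue as well as in cell type.

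In the adult testis, GDNF from Sertoli cells and from peritubular myoid cells keeps spermatogonial stem cells renewing. It binds the membrane-anchored co-receptor GFRA1 on those cells, and the pair activates the receptor tyrosine kinase RET. Neurturin (Nrtn) and artemin (Artn) are related ligands that prefer GFRA2 and GFRA3 and use RET as well. KIT ligand (Kitl, also called stem cell factor) is made by Sertoli cells as a membrane-bound and a shed form, and it acts on the receptor tyrosine kinase KIT of differentiating spermatogonia. KIT is also found on Leydig cells, mast cells and melanocytes.

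Levels are given in CPM (counts scaled to a common library size), and 1 read corresponded to 0.0468 to 0.0543 CPM in libraries of 19294671 to 20418587 reads. Each log2 fold change stands with ± its standard error. Its p-value is that of the quasi-likelihood test of edgeR, adjusted by Benjamini and Hochberg's method over 15272 tested genes, and a gene is said to rise or fall where the adjusted p was under 0.05. Nothing in the labels tells whether replicate libraries stem from different cultures or animals, so the p-values measure only the spread between these libraries, which may be technical. Of 10 Sertoli cell markers, 9 were tested. Clu, Wt1 and Cldn11 rose in CiSCs against MEFs, where 19.6% of all tested genes were higher. Clu had 4734 and 4020 CPM in CiSCs, 4852 and 7530 CPM in MSCs, and 5.66 and 5.87 CPM in MEFs, and Wt1 had 22.4 and 21.1 CPM in CiSCs, 175 and 225 CPM in MSCs, and 1.32 and 1.40 CPM in MEFs. Cldn11 was low in CiSCs, at 1.00 and 1.17 CPM, against 263 and 373 CPM in MSCs and 0.101 and 0.0520 CPM in MEFs. It entered the test only through its CiSC and MSC reads, so that its difference from MEFs was built into its selection. The transcription factor gene Gata4 was nearly absent from CiSCs, at 0.0954 and 0.0936 CPM, against 240 and 265 CPM in MSCs. Gata4, Dmrt1, Amh and Aard entered the test through their MSC reads, so that no count of markers higher in MSCs is given. The sum of 5 fibroblast markers was at least 11184 CPM in every library and highest in MSCs, at 28135 and 30392 CPM. Its genes did not move together. In MSCs against MEFs 2 of the 5 were higher, 1 was lower and 2 did not pass, where 22.5% of all tested genes were higher and 20.0% lower. Thy1 had 145 and 132 CPM in CiSCs, 4.15 and 4.29 CPM in MSCs, and 867 and 687 CPM in MEFs. Markers of other cells were present too. All 8 macrophage markers were lower in CiSCs and in MSCs than in MEFs, where 21.3% and 20.0% of all tested genes were lower. The sum of the 8 was 33.6 and 48.7 CPM in the CiSC libraries, 1331 and 1267 CPM in the MSC libraries, and 11342 and 18720 CPM in the MEF libraries. The sum of 7 Leydig cell markers was 3.72 and 2.58 CPM in CiSCs, 1360 and 1393 CPM in MSCs, and 2.45 and 2.39 CPM in MEFs. In MSCs its largest parts were Cyp11a1 (773 and 794 CPM) and Star (423 and 426 CPM). Hsd3b1 had 104 and 109 CPM there, and Insl3 had 60.3 and 64.6 CPM. Of the same list, Lhcgr, Cyp17a1 and Hsd17b3 had at most 2 reads in any library. In RNA from mixed cells, fewer cells of a type and less RNA per cell cannot be told apart. Replicates were closest in MSCs, where 415 genes differed by over 2-fold, and 477 did so in CiSCs and 1416 in MEFs.

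Both main ligands were highest in the Sertoli cell libraries, and of the pair Kitl alone passed the test in CiSCs against MEFs. Gdnf (Entrez Gene 14573) stood at 1.77 and 2.11 CPM in the CiSC libraries, at 15.7 and 23.1 CPM in the MSC libraries and at 1.42 and 1.25 CPM in the MEF libraries. These values came from 37 and 45 reads in CiSCs, 296 and 425 in MSCs, and 28 and 24 in MEFs. No 2 groups overlapped, but the gap between CiSCs and MEFs was small. Gdnf was 14.5-fold higher in MSCs than in MEFs (log2 fold change 3.86 ± 0.28, adjusted p = 0.000131, edgeR) and fell in CiSCs against MSCs (log2 fold change -3.32 ± 0.27, adjusted p = 0.000160, edgeR). Against MEFs, CiSCs gave a log2 fold change of 0.54 ± 0.30, which did not pass (adjusted p = 0.193, edgeR).

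Kitl (Entrez Gene 17311) had 49.0 and 57.1 CPM in the CiSC libraries, 384 and 339 CPM in the MSC libraries, and 23.1 and 11.2 CPM in the MEF libraries. The 3 groups were fully separated, with CiSCs between the others. In CiSCs Kitl was 3.10-fold higher than in MEFs (log2 fold change 1.63 ± 0.32, adjusted p = 0.00814, edgeR), and in MSCs 21.1-fold higher than in MEFs (log2 fold change 4.40 ± 0.35, adjusted p = 0.000188, edgeR). CiSCs lay below MSCs (log2 fold change -2.77 ± 0.33, adjusted p = 0.000773, edgeR). The rise in CiSCs was sensitive to single libraries. Without the second CiSC library the call was lost (adjusted p = 0.0551, in a range of 1.93e-06 to 0.0551 over all alternatives), and without the first MEF library the log2 fold change was 2.22.

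The minor ligands of the GDNF family were scarce everywhere. Nrtn (Entrez Gene 18188) had 24 and 32 reads in CiSCs, 4 and 11 in MSCs, and 16 and 12 in MEFs, or 1.14 and 1.497 CPM in CiSCs, 0.213 and 0.598 CPM in MSCs, and 0.809 and 0.624 CPM in MEFs. It was highest in CiSCs. No 2 groups overlapped, but MSCs and MEFs came as close as 11 and 12 reads. Nrtn entered the test through its CiSC and MEF reads, so that its difference from MSCs was in part built into its selection. The difference between CiSCs and MSCs was the only one that passed (log2 fold change 1.69 ± 0.54, adjusted p = 0.0433, edgeR), and it was lost when either CiSC or either MSC library was left out and by DESeq2. Its log2 fold change was 1.14 without the first MSC library and 2.60 without the second. Over all alternatives its adjusted p was 0.0182 to 0.231. Artn (Entrez Gene 11876) had between 5 and 10 reads in every library. It was not tested, and its count ratio of 0.596 between CiSCs and MEFs had an exact binomial 95% interval of 0.252 to 1.35, so that these reads could not resolve a difference.

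**Figure D1:**
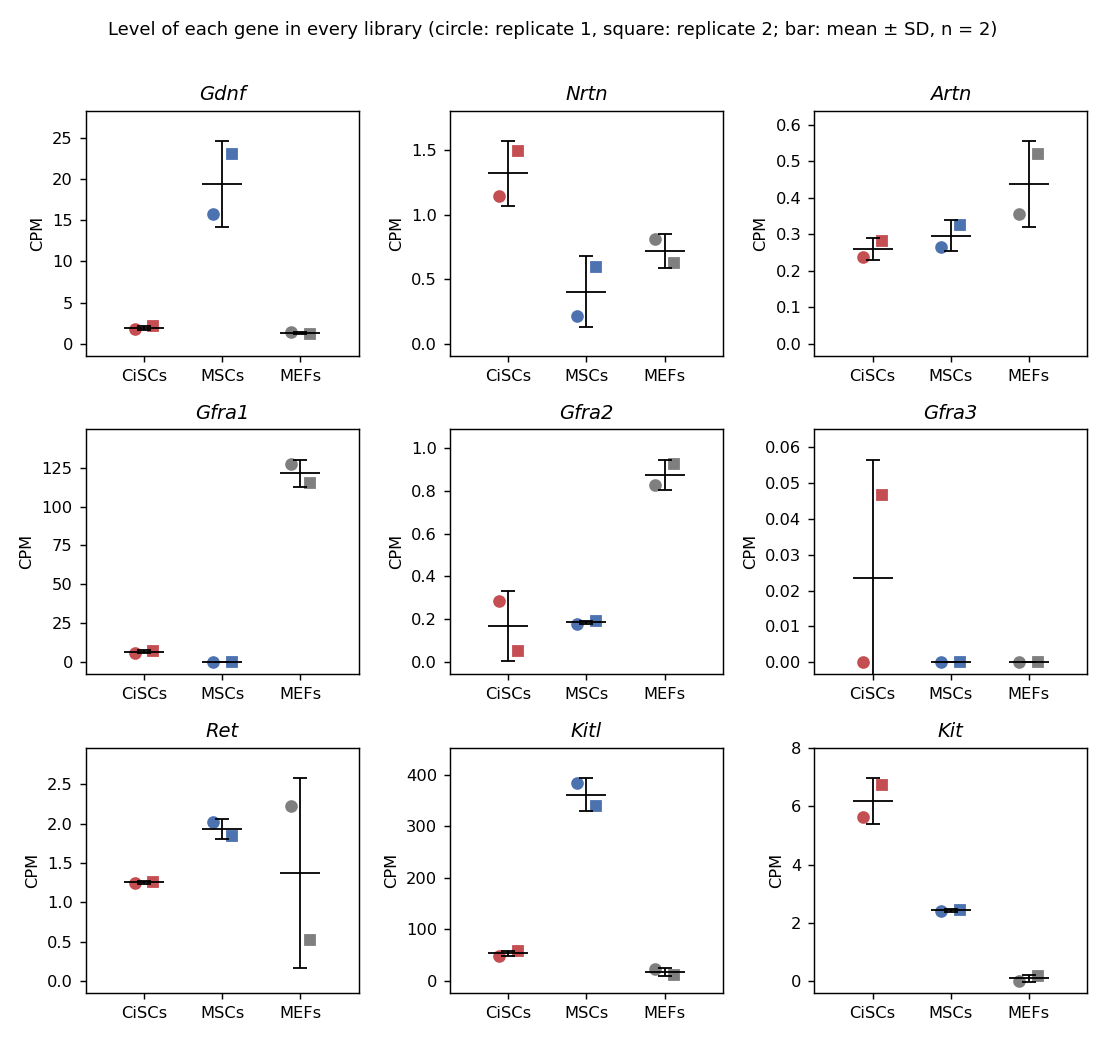
CPM (vertical axes, linear and on a scale of their own for each gene) of the 9 genes in every library, with circles for replicate 1, squares for replicate 2 and bars for the mean ± SD of the 2 libraries of CiSCs, MSCs and MEFs. Gdnf and Kitl peak in MSCs, Gfra1 in MEFs and Kit in CiSCs, and the 2 MEF libraries lie far apart for Ret, at 2.23 and 0.520 CPM.

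The co-receptor of GDNF ran opposite to its ligand. Gfra1 (Entrez Gene 14585) stood at 6.20 and 7.39 CPM in the CiSC libraries, at 0.425 and 0.217 CPM in the MSC libraries and at 127 and 115 CPM in the MEF libraries. The reads behind them were 130 and 158 in CiSCs, 8 and 4 in MSCs, and 2519 and 2212 in MEFs. Every MEF value was thus far above every other, and the 3 groups did not overlap. Gfra1 entered the test only through its CiSC and MEF reads, so that the difference of MSCs from both was built into its selection. Gfra1 fell in CiSCs against MEFs (log2 fold change -4.15 ± 0.20, adjusted p = 2.60e-05, edgeR) and in MSCs against MEFs (-8.53 ± 0.28, adjusted p = 1.10e-05, edgeR), the change in MSCs being 369-fold. Of 15272 tested genes, it had the 29th lowest log2 fold change in MSCs against MEFs and the 670th lowest in CiSCs against MEFs. CiSCs kept 20.7-fold more than MSCs (log2 fold change 4.37 ± 0.29, adjusted p = 6.80e-05, edgeR). These 3 calls held under every alternative tried. The 8 macrophage markers fell in the comparisons with MEFs as well, and their part in the fall of Gfra1 was not tested.

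The other co-receptors were at the edge of detection. Gfra2 (Entrez Gene 14586), the neurturin co-receptor, had 5.96 and 1.14 estimated reads in CiSCs, 3.39 and 3.51 in MSCs, and 16.3 and 17.8 in MEFs. It entered the test only through its MEF reads, so that a difference from MEFs was built into its selection. It was lower in CiSCs than in MEFs (log2 fold change -2.35 ± 0.69, adjusted p = 0.0351, edgeR) and in MSCs than in MEFs (log2 fold change -2.18 ± 0.69, adjusted p = 0.0448, edgeR). Of the alternatives, 9 of 13 ended the first call (adjusted p from 0.0346 to 0.166), among them leaving out the second CiSC, the second MEF or either MSC library. Of 13, 8 ended the second (adjusted p from 0.0203 to 0.239), among them leaving out either MEF or either MSC library. Gfra3, the artemin co-receptor, had 1 read in the second CiSC library and 0 in the 5 others, and 3 reads over a group would have been 0.0709 CPM in CiSCs, 0.0806 CPM in MSCs and 0.0769 CPM in MEFs.

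Ret (Entrez Gene 19713), the signalling receptor of the family, was low in every group and did not pass in any comparison. It had 1.24 and 1.26 CPM in CiSCs, 2.02 and 1.85 CPM in MSCs, and 2.23 and 0.520 CPM in MEFs. The MEF libraries, with 44 and 10 reads, spanned all the other values, while the CiSC and MSC libraries did not overlap. Log2 fold changes were -0.14 ± 0.62 for CiSCs against MEFs (adjusted p = 0.879, edgeR), 0.49 ± 0.61 for MSCs against MEFs (adjusted p = 0.545, edgeR) and -0.62 ± 0.61 for CiSCs against MSCs (adjusted p = 0.454, edgeR). Without the first MEF library, Ret was higher in MSCs than in MEFs (log2 fold change 1.85, adjusted p = 0.0115, in a range of 0.0115 to 0.897 over all alternatives), and the sign for CiSCs against MEFs turned (1.23). Without the second MEF library the sign for MSCs against MEFs turned (-0.20). The 3 genes whose profile over the 6 libraries lay nearest to that of Ret, namely Kif1b, Cldn12 and Zzef1, showed the same gap between the MEF libraries, with 122 and 46.2 CPM for Kif1b.

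Kit (Entrez Gene 16590), the receptor for KIT ligand, was highest in the induced cells. It stood at 5.63 and 6.74 CPM in the CiSC libraries (118 and 144 reads), at 2.39 and 2.44 CPM in the MSC libraries (45 reads each), and at 0 and 0.156 CPM in the MEF libraries (0 and 3 reads). The groups did not overlap, and replicates lay close together in CiSCs and MSCs. Kit entered the test only through its CiSC and MSC reads, so that its difference from MEFs was built into its selection. Kit rose in CiSCs against MEFs (adjusted p = 0.000492, edgeR) and in MSCs against MEFs (adjusted p = 0.00170, edgeR). Because only 3 reads were counted in MEFs, the size is given as a ratio of counts, 80.5 for CiSCs (exact binomial 95% interval 27.2 to 393) and 31.4 for MSCs (10.4 to 155), and these intervals cover counting error only. The fitted log2 fold change moved between 5.23 and 9.94 for CiSCs and between 3.87 and 8.59 for MSCs as either MEF library was left out. CiSCs were 2.55-fold above MSCs (log2 fold change 1.35 ± 0.40, adjusted p = 0.0354, edgeR), a call that was lost when any single CiSC or MSC library was left out (adjusted p from 0.000657 to 0.201 over all alternatives).

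Markers of other cells that carry KIT were read beside these values. The sum of 6 mast cell markers was 6.15 and 5.52 CPM in CiSCs, 18.6 and 21.3 CPM in MSCs, and 1.16 and 0.624 CPM in MEFs. In MSCs the sum was that of Hdc (histidine decarboxylase) alone, and the 5 others were at 0. The chymase gene Cma1 reached 6.11 and 5.05 CPM in CiSCs, against 0 CPM in both MSC libraries and 0.202 and 0 CPM in MEFs. The defining mast cell protease gene Cpa3 was at 0.0477 and 0.140 CPM in CiSCs, and Ms4a2, a subunit of the IgE receptor, was at 0 in both. Their part in the Kit level of CiSCs was not tested. The sum of 6 melanocyte markers was 19.6 and 25.8 CPM in CiSCs, 26.8 and 25.4 CPM in MSCs, and 40.9 and 38.6 CPM in MEFs. The sum of 9 germ cell markers was 13.9 and 10.8 CPM in CiSCs, 49.5 and 50.6 CPM in MSCs, and 8.17 and 10.04 CPM in MEFs. In MSCs its largest parts were Zbtb16 (25.2 and 19.2 CPM) and Uchl1 (15.9 and 23.4 CPM). Uchl1 had 11.3 and 8.65 CPM in CiSCs. Ddx4 had 5.64 and 3.91 CPM in MSCs and 0.0477 and 0.0468 CPM in CiSCs, and Tnp1 and Prm1 had at most 2 reads in any library. The part of germ cells, and of the Leydig cells whose markers are given above, in the Kit level of MSCs was not tested. The sum of 6 markers of peritubular myoid and smooth muscle cells, which also make GDNF, was 1704 and 1536 CPM in CiSCs, 3934 and 3746 CPM in MSCs, and 3654 and 3270 CPM in MEFs. In MSCs against MEFs 2 of the 6 were higher and 4 did not pass (median log2 fold change 0.16), where 22.5% of all tested genes were higher. Myh11 (smooth muscle myosin) had 3.05 and 2.95 CPM in CiSCs, 91.0 and 93.0 CPM in MSCs, and 16.3 and 10.4 CPM in MEFs. Cnn1 and Actg2 averaged 81.5 and 66.3 CPM in MSCs, below their 97.2 and 81.8 CPM in MEFs. The part of such cells in the Gdnf level of MSCs was not tested.

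Counted over the 7 tested genes, 4 differed between CiSCs and MEFs, with Kitl and Kit higher and Gfra1 and Gfra2 lower, where 40.9% of all tested genes differed (19.6% higher, 21.3% lower). Between MSCs and MEFs 5 differed, with Gdnf, Kitl and Kit higher and Gfra1 and Gfra2 lower, where 42.5% of all tested genes did (22.5% higher, 20.0% lower). Between CiSCs and MSCs 5 differed, with Nrtn, Gfra1 and Kit higher and Gdnf and Kitl lower, where 42.8% of all tested genes did (17.7% higher, 25.1% lower). The counts include Nrtn, Gfra1, Gfra2 and Kit, which entered the test through the reads of some groups only. With 7 genes these counts do not set the family apart from that background. Leaving out the second CiSC library lowered the first count to 2, and leaving out either CiSC or either MSC library lowered the third to 3. The comparisons with MEFs share the MEF libraries and are therefore not independent.

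**Figure D2:**
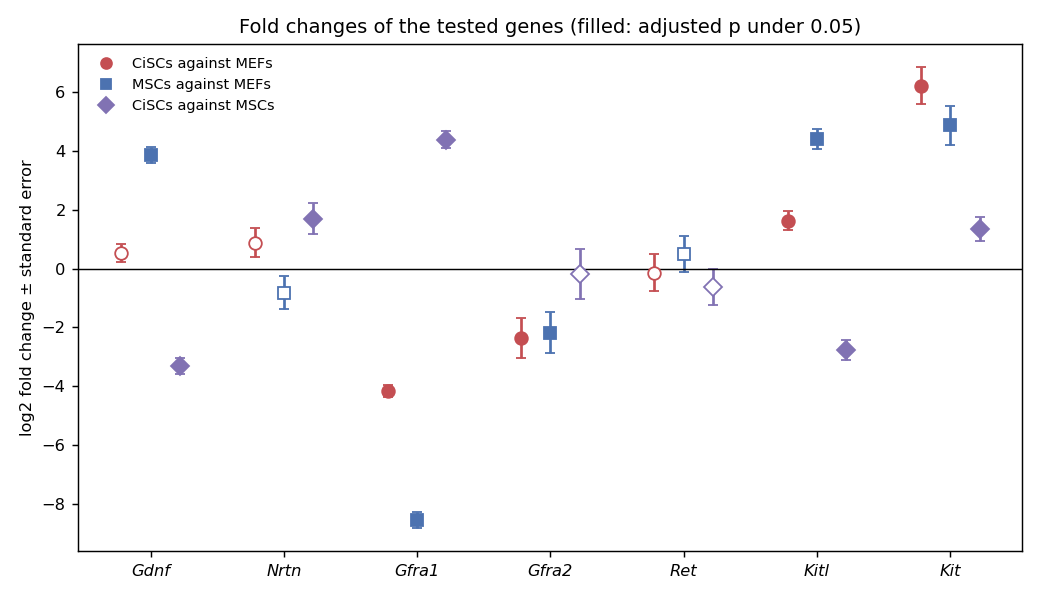
Log2 fold change ± standard error (vertical axis) of the 7 tested genes in CiSCs against MEFs (circles), MSCs against MEFs (squares) and CiSCs against MSCs (diamonds), filled where the adjusted p was under 0.05. Gfra1 has the most negative values, -4.15 and -8.53 against MEFs, and Gdnf passes against MEFs in MSCs and not in CiSCs.

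Scaled by length, as CPM per kilobase of annotated exon, the order of the genes within a group could be read. Kitl was the most abundant member in MSCs at 61.1 ± 5.43 CPM per kilobase (SD, n = 2), followed by Gdnf at 5.28 ± 1.41. The next, Nrtn, Ret and Kit, lay at 0.396 ± 0.266, 0.286 ± 0.0181 and 0.271 ± 0.00413 CPM per kilobase, and the libraries of these neighbours overlapped. Artn, Gfra1 and Gfra2 followed at 0.123 ± 0.0177, 0.0587 ± 0.0269 and 0.0524 ± 0.00209 CPM per kilobase. In CiSCs Kitl also came first at 8.98 ± 0.961 CPM per kilobase, followed by Nrtn at 1.29 ± 0.243 and Gfra1 at 1.24 ± 0.154, which were not separated. Kit, at 0.694 ± 0.0879 CPM per kilobase, and Gdnf, at 0.527 ± 0.0655, came after them without overlap, and Ret, Artn and Gfra2 were at 0.185 ± 0.00238, 0.108 ± 0.0124 and 0.0477 ± 0.0462. In MEFs the order was led by a receptor, with Gfra1 at 22.1 ± 1.61 and Kitl at 2.90 ± 1.42 CPM per kilobase. Nrtn at 0.700 ± 0.128 and Gdnf at 0.363 ± 0.0325 CPM per kilobase came next. Gfra2, Ret and Artn lay at 0.247 ± 0.0197, 0.203 ± 0.178 and 0.182 ± 0.0487, and Kit had 0.00875 ± 0.0124. The 2 Ret libraries spanned those of Gfra2 and Artn, which did not overlap each other. Gfra3, with its single read, came last in CiSCs and had 0 reads in MSCs and MEFs. Within MSCs the ligands Kitl and Gdnf thus stood above every receptor, whereas in CiSCs Gdnf stood below Gfra1 and Kit.

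**Figure D3:**
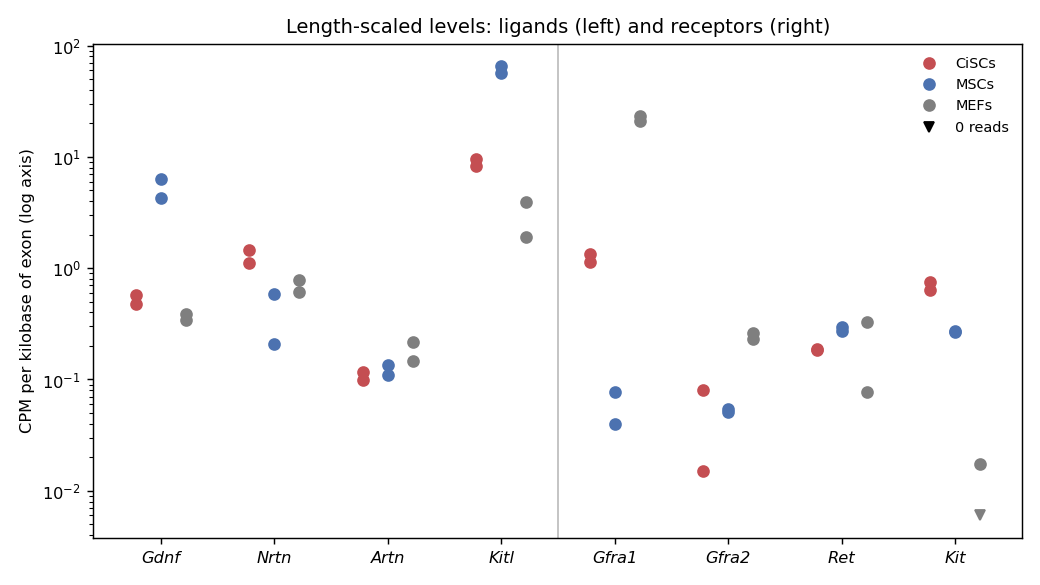
CPM per kilobase of exon (vertical axis, log scale) of 4 ligands on the left and 4 receptors on the right, with 1 point per library of CiSCs, MSCs and MEFs, and a triangle placed at the foot of the axis for 0 reads. Kitl in MSCs, at 65.0 and 57.3, and Gfra1 in MEFs, at 23.3 and 21.0, are the highest ligand and receptor values.

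The promoters of Gdnf and Kitl, the ligands that were highest in MSCs, and of Gfra1, which was lowest there, are shown to set their sequence beside these levels. Each is the 250 bases before the annotated start of transcription, taken from RefSeq on GRCm38.p6, whereas the submitters' processing notes name mm9, and written on the strand of the gene. Capitals mark matches, on either strand, to TATAAA (the TATA box), GGGCGG (the GC box bound by SP1) and TGACGT (part of the cAMP response element). Gdnf lies on the plus strand at chr15:7809798-7810047, Kitl on the plus strand at chr10:100015571-100015820, and Gfra1 on the minus strand at chr19:58455399-58455648.
Gdnf: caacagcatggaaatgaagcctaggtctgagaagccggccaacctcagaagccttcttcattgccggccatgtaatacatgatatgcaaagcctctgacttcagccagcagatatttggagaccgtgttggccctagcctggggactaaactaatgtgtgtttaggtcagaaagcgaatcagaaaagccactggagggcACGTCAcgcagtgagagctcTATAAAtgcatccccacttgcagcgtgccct
Kitl: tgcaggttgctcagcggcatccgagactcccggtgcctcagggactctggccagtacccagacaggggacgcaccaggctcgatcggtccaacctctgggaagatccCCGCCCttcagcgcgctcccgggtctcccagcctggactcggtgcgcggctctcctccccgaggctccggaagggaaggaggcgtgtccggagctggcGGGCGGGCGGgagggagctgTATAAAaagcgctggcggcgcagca
Gfra1: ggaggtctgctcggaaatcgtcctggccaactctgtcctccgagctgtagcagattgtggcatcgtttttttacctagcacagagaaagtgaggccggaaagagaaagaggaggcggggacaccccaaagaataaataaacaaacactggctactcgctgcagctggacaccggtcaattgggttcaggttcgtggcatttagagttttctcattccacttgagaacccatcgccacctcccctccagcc

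Both ligand promoters held TATAAA on the strand of the gene, beginning 31 bases before the start in Gdnf and 25 bases before it in Kitl. Of 32851 mouse promoters of the same length, 7.59% held it on that strand and 12.4% on either strand. The Gdnf promoter also held 1 match to TGACGT, read on the other strand and found in 6.47% of promoters, and the Kitl promoter held 3 matches to GGGCGG, of which 2 overlap each other, a motif found in 32.7% of promoters. The Gfra1 promoter held none of the 3 motifs in this window. A second annotated start of Gdnf, with none of the 3 motifs before it, is not shown, and gene counts cannot tell the starts apart. The matches describe these letters and show no binding.

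By distance between mean-centred log2 CPM profiles over the 6 libraries, the named genes nearest to Gdnf were Plekha7 (distance 0.41), Coro6 (0.41) and Zbtb7c (0.57). Those nearest to Kitl were Aff2 (0.34), Cacna1h (0.52) and Akap5 (0.56). Gfra1 had no near match, with Gap43, a growth cone protein gene, at 1.38, Gpr149 at 1.47 and Mab21l2 at 1.51. Gap43 had 2.62 and 1.45 CPM in CiSCs, 0.106 and 0.0543 CPM in MSCs, and 23.7 and 25.0 CPM in MEFs, the same order of groups as Gfra1. Nearest to Kit were Adgrb2 (0.71), Emcn (0.99) and Doc2b (1.01), each highest in CiSCs. Nrtn lay nearest to Inava, Trim11 and Col27a1, and Gfra2 to Ica1, Ttc7 and Tifa. The distances are descriptions over 3 groups of 2 libraries.

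Other genes of the GDNF receptor system were lower in CiSCs or did not pass. Ncam1, a cell adhesion molecule that can serve as a GDNF receptor without RET, had 115 and 106 CPM in CiSCs, 249.8 and 272 CPM in MSCs, and 286 and 278 CPM in MEFs. It fell in CiSCs against MEFs (log2 fold change -1.35 ± 0.13, adjusted p = 0.000337, edgeR) and against MSCs (-1.24 ± 0.12, adjusted p = 0.000394, edgeR). The heparan sulphate carrier gene Sdc3 and the sorting receptor gene Sorl1 also fell in CiSCs against MEFs, with log2 fold changes of -1.11 ± 0.23 (adjusted p = 0.00940, edgeR) and -2.18 ± 0.22 (adjusted p = 0.000480, edgeR), so that 3 of 5 tested genes of this list were lower and 0 higher, where 21.3% of all tested genes were lower and 19.6% higher. For the lists that follow, the shares over all tested genes are the same in CiSCs against MEFs, 22.5% higher and 20.0% lower in MSCs against MEFs, and 17.7% higher and 25.1% lower in CiSCs against MSCs. The median of the 5 was -1.11, against -0.0022 over all tested genes. In MSCs against MEFs 1 of 5 was lower, Sorl1, and in CiSCs against MSCs 1 of 5, Ncam1. In MSCs against MEFs Sdc3 was lower too without either MEF or either CiSC library. In CiSCs against MSCs Sdc3 was lower too without the first CiSC library, and Sorl1 was higher without either MEF library. Gfra4, the co-receptor of persephin, had between 3.79 and 5.61 CPM in every library and did not pass in any comparison, and Gdf15, the ligand of another RET co-receptor, passed against MEFs only without the second MEF library (adjusted p = 0.0210 in CiSCs and 0.00685 in MSCs, edgeR). Pspn and Gfral were not analysed here. The lists that follow also count genes that entered the test through the reads of some groups only, such as Pou3f1, Cma1, Fgf9 and Il1b. Their differences from the other groups were built into their selection.

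The adaptors and brakes that relay signals from RET and KIT moved in both directions. Of 31 tested genes, 13 rose and 8 fell in CiSCs against MEFs (median log2 fold change 0.31), 6 rose and 11 fell in MSCs against MEFs (0.06), and 11 rose and 7 fell in CiSCs against MSCs (0.29). The Sprouty genes, which encode feedback inhibitors of receptor tyrosine kinases, were among those higher in CiSCs. Spry4 had 149 and 175 CPM in CiSCs, 17.5 and 16.0 CPM in MSCs, and 23.3 and 11.4 CPM in MEFs (log2 fold change 3.22 ± 0.33 against MEFs, adjusted p = 0.000544, edgeR). Spry1 averaged 349 ± 28.1 CPM in CiSCs, 156 ± 9.66 CPM in MSCs and 93.2 ± 3.06 CPM in MEFs (SD, n = 2 each). Gab1, a docking protein, averaged 111 ± 8.82 CPM in CiSCs and 15.9 ± 5.45 CPM in MEFs, and Pik3r1, the regulatory subunit of PI3 kinase, 242 ± 21.0 CPM in CiSCs and 43.1 ± 7.54 CPM in MEFs, and both rose (adjusted p = 0.000276 and 0.000136, edgeR). The genes that fell furthest in CiSCs against MEFs are best known from blood cells. Ptpn6, a phosphatase that restrains KIT in such cells, had 0.334 and 0.608 CPM in CiSCs against 100.5 and 205 CPM in MEFs, and the phospholipase gene Plcg2 averaged 2.08 ± 0.496 CPM in CiSCs and 114 ± 39.7 CPM in MEFs. The kinase gene Lyn (log2 fold change -2.87 ± 0.14, adjusted p = 2.72e-05, edgeR) and the adaptor gene Dok2 (-3.88 ± 0.22, adjusted p = 4.69e-05, edgeR) fell as well. Macrophage markers fell beside them, and their part was not tested. Without the second CiSC library 13 of the 31 passed in CiSCs against MEFs. In MSCs against MEFs 27 passed without the first MEF library and 11 without the first MSC library. In CiSCs against MSCs 11 passed without the first CiSC library, 9 without the first MSC library and 10 without the second.

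GDNF response genes were listed from work on spermatogonia, in which GDNF acts, and they have other inputs in somatic cells. Of 10 tested, 4 rose and 1 fell in CiSCs against MEFs (median log2 fold change 0.22), 3 rose and 3 fell in MSCs against MEFs (0.22), and 5 rose and 3 fell in CiSCs against MSCs (0.73). Etv5, a transcription factor gene that Sertoli cells also use, had 109 and 112 CPM in CiSCs, 68.8 and 54.6 CPM in MSCs, and 55.0 and 59.7 CPM in MEFs, and rose in CiSCs against MEFs (log2 fold change 0.95 ± 0.15, adjusted p = 0.00359, edgeR). Mycn, a growth-promoting transcription factor gene, averaged 28.9 ± 1.43 CPM in CiSCs, 6.63 ± 0.393 CPM in MSCs and 1.65 ± 0.612 CPM in MEFs. The POU factor gene Pou3f1 had 0.0954 and 0.0936 CPM in CiSCs, 5.53 and 6.52 CPM in MSCs, and 0.0506 and 0.104 CPM in MEFs, in libraries that also differed in the germ cell marker sum given above. Cxcr4, the receptor of CXCL12, fell in CiSCs against MEFs (log2 fold change -8.05 ± 0.52, adjusted p = 7.51e-05, edgeR), and leukocytes also express it. Without the second MSC library, 5 of the 10 passed in CiSCs against MSCs.

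Proteases that can shed or process KIT ligand also changed in both directions, 2 higher and 4 lower of 8 in CiSCs against MEFs (median log2 fold change -0.09), 1 higher and 3 lower in MSCs against MEFs (-1.11), and 3 higher and 2 lower in CiSCs against MSCs (0.17). Cma1, one of those higher in CiSCs, entered the test only through its CiSC reads, so that its rise was built into its selection. Adam19 averaged 530 ± 31.3 CPM in CiSCs, 189 ± 8.40 CPM in MSCs and 114 ± 39.4 CPM in MEFs and rose in CiSCs against MEFs (log2 fold change 2.21 ± 0.24, adjusted p = 0.000705, edgeR). Adam8, which macrophages express, averaged 6.92 ± 0.0893 CPM in CiSCs, 211 ± 24.4 CPM in MSCs and 677 ± 104 CPM in MEFs. Mmp9 averaged 6.24 ± 1.88 CPM in CiSCs, 0.405 ± 0.0288 CPM in MSCs and 45.2 ± 3.99 CPM in MEFs. The rise of Adam19 in MSCs against MEFs no longer passed when either CiSC or either MSC library was left out. The same held for the fall of Adam17 in CiSCs against MEFs. Gene counts do not separate the membrane-bound from the shed form of KIT ligand.

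Among other secreted or signalling factors of the tubule, most were lower in CiSCs than in MSCs. Of 14 tested genes, 12 were lower and 1 was higher (median log2 fold change -2.09), where 25.1% of all tested genes were lower and 17.7% higher and the median was -0.03. Markers of other cells were lower in CiSCs than in MSCs as well, among them the 8 macrophage markers and the Leydig cell marker sum given above. The sum of 6 endothelial markers was 2.86 and 3.02 CPM in CiSCs, 88.2 and 92.5 CPM in MSCs, and 11.9 and 10.5 CPM in MEFs. Their part in the niche factor levels was not tested. In MSCs against MEFs 9 rose and 2 fell (median 1.76), and in CiSCs against MEFs 3 rose and 7 fell (median -0.61). Fgf2, a growth factor that acts with GDNF on spermatogonial stem cells, had 0.716 and 1.12 CPM in CiSCs, 14.1 and 12.5 CPM in MSCs, and 0.759 and 0.104 CPM in MEFs, and fell in CiSCs against MSCs (log2 fold change -3.85 ± 0.54, adjusted p = 0.00169, edgeR). Wnt6 averaged 1.04 ± 0.282 CPM in CiSCs, 59.6 ± 5.54 CPM in MSCs and 6.87 ± 2.92 CPM in MEFs, and the glutamine synthetase gene Glul 39.6 ± 1.26 CPM in CiSCs, 442 ± 3.06 CPM in MSCs and 61.4 ± 4.75 CPM in MEFs. Cxcl12, a chemokine that holds stem cells in their niche, was the exception. It had 804 and 799 CPM in CiSCs, 333 and 290 CPM in MSCs, and 113 and 61.8 CPM in MEFs, and rose in CiSCs against MEFs (log2 fold change 3.19 ± 0.30, adjusted p = 0.000340, edgeR). Its difference between CiSCs and MSCs (log2 fold change 1.36 ± 0.28, adjusted p = 0.00826, edgeR) was lost without either MSC library (adjusted p up to 0.0790).

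**Figure D4:**
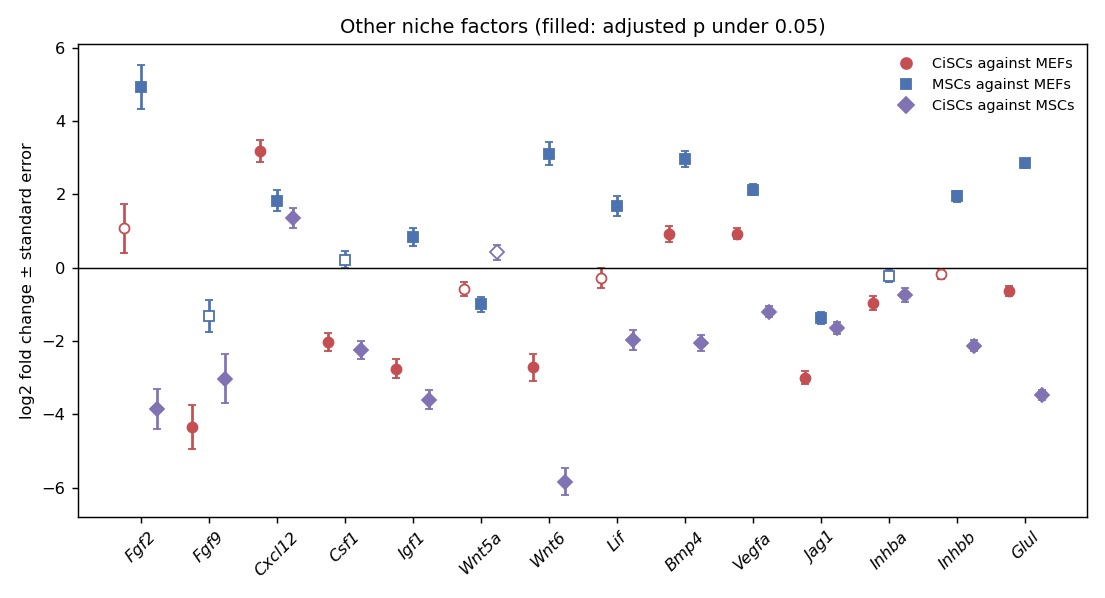
Log2 fold change ± standard error (vertical axis) of the 14 tested niche factors other than the GDNF and KIT genes in CiSCs against MEFs (circles), MSCs against MEFs (squares) and CiSCs against MSCs (diamonds), filled where the adjusted p was under 0.05. The diamonds of 12 genes are filled and below 0, and Cxcl12 is the gene with a filled diamond above 0.

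Genes known to regulate Gdnf in Sertoli or myoid cells did not share a direction, with 4 higher and 4 lower of 10 in CiSCs against MEFs (median log2 fold change 0.12), 3 higher and 5 lower in MSCs against MEFs (-0.44), and 3 higher and 4 lower in CiSCs against MSCs (-0.83). Fshr, the receptor through which follicle-stimulating hormone raises Gdnf, had 0 reads in the CiSC and MEF libraries and 0.213 and 0.217 CPM in MSCs and was not tested. Of the Notch genes, through which germ cells lower Gdnf, Notch1 averaged 63.3 ± 7.54 CPM in CiSCs, 22.9 ± 2.32 CPM in MSCs and 23.2 ± 7.38 CPM in MEFs. Its ligand gene Jag1 averaged 10.2 ± 0.661 CPM in CiSCs, 31.9 ± 0.540 CPM in MSCs and 81.8 ± 14.9 CPM in MEFs. The repressor gene Hes1, at 28.2 ± 0.0776 CPM in CiSCs, 19.1 ± 1.12 CPM in MSCs and 34.5 ± 3.43 CPM in MEFs, was lower in MSCs than in MEFs (log2 fold change -0.86 ± 0.14, adjusted p = 0.00343, edgeR), and in CiSCs against MEFs it did not pass (-0.29 ± 0.14, adjusted p = 0.132, edgeR).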

How the data were processed

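RNA sequencing on the BGISEQ-500 platform gave 1 file per library. The authors deposited expected counts per gene, estimates of reads that are often fractional (42.0% to 43.8% of values), listed by Entrez Gene number. HISAT and the mouse build mm9 are named, per the submitters' processing notes. The counting program, annotation, strand and filters are not given in the sources used here. After rounding, edgeR 4.0.16 (in R 4.3.3) was run on the 15272 genes that passed its default filter on low counts, with TMM scaling and a quasi-likelihood model of 1 mean per group over all 6 libraries (3 residual degrees of freedom). CPM values use the deposited counts over the scaled library sizes, and log2 CPM a prior count of 2. The threshold was an adjusted p of 0.05, two-sided. Standard errors are the log2 fold change over the root of F. Of 20007 identifiers, 18891 matched a symbol in RefSeq's table for GRCm38. Exon lengths are unions of GENCODE M21 exons. Promoters were found for 6 of 9 genes. The fit was tested on simulated data.

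The members, gene lists and the naming rule were chosen with earlier results of these data known. All 9 members are named. From each list, genes past the threshold in at least 1 comparison could be named, those with the smallest adjusted p first. That order was not kept throughout, and which passing genes were described was settled after their values were seen. The same holds for Gfra4, Gdf15, Fshr and the single markers, which fall outside the rule. For each tested member, the 3 nearest genes are named among those whose highest group mean reached 10 CPM. Alternatives were each library left out, a replicate block, only the 2 groups compared, median-ratio size factors, no filter, at least 5 CPM in 2 libraries, DESeq2 1.42.0, an adjusted p of 0.01, and a fold of 1.5 as the null.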

Additional observations from a re-analysis of the deposited data

How the results depend on the processing

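Of 21 log2 fold changes of members (7 genes, 3 comparisons), 13 kept their direction and their side of the threshold under every alternative in which they could be fitted, and none of the calls for Gdnf or Gfra1 changed. The other 8 were those of Nrtn in 1 comparison, Gfra2 in 3, Ret in 2, Kitl in 1 and Kit in 1, and Nrtn, Gfra2 and Ret had at most 44 reads in a library. Signs turned for Ret in CiSCs against MEFs, which spanned -0.83 to 1.23 over left-out libraries and was 0.020 with a replicate block and 0.0046 with the CiSC numbers crossed. They also turned for Ret in MSCs against MEFs (-0.20 to 1.85 over left-out libraries) and for Gfra2 in CiSCs against MSCs (-1.86 to 0.59). Over left-out libraries, the genes called ranged from 3395 to 9487 in CiSCs against MEFs (6250 with all), from 3516 to 9745 in MSCs against MEFs (6497) and from 3910 to 9369 in CiSCs against MSCs (6534), and the members called from 2 to 4, from 4 to 5 and from 3 to 5. At an adjusted p of 0.01 these counts were 3774, 4009 and 4324 genes, and against a fold of 1.5 they were 3664, 3979 and 4282, with 3 members called in CiSCs against MSCs under either. Whether the replicate numbers pair the libraries is not known. Deviations of same-numbered libraries correlated at -0.21 for MEFs and CiSCs, 0.14 for MEFs and MSCs and -0.13 for CiSCs and MSCs. With 2 libraries per group these values cannot decide it. With the replicate block 5468, 5672 and 5814 genes were called, and 3 members in CiSCs against MSCs, the calls for Nrtn (adjusted p = 0.0668, edgeR) and Kit (adjusted p = 0.0580, edgeR) being lost, as were both calls for Gfra2 against MEFs. With the CiSC numbers crossed, added after the data had been seen, 6829, 7158 and 6998 genes were called. Of 270 list counts under alternatives, 22 moved by over 1.5 times. The causes were not tested.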
